A study of Mus musculus with 12 samples.

Results

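Expression of 7 chemokine genes, Cxcl9, Cxcl10, Xcl1, Ccl3, Ccl4, Ccl5 and Ccl22, was followed in mouse splenic CD8 T cells that had been left untreated or stimulated in 3 ways. The genes were taken by symbol from a table of 20778 genes, and all 7 were found in it and passed the filter on low counts. Cells had been bound with magnetic beads from spleens of the C57BL/6 strain, at an age of 6 weeks per the labels, and all were held in culture for 6 hours. The Naïve group received nothing, the αCD3 group an antibody to CD3 (1 µg/ml), the IFNγ group interferon gamma (70 ng/ml) and the LPS group lipopolysaccharide (1 µg/ml), with 3 libraries in each group. Another label field gives the αCD3 and LPS doses in mg/ml, and the study's methods name older mice, so that unit and the age are uncertain. No source used here says whether the 3 libraries of a group came from separate mice or cultures, so p-values measure only the spread between these libraries.

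Chemokines are small secreted proteins that guide cells carrying matching G protein-coupled receptors. CXCL9 and CXCL10 attract activated T cells and NK cells through CXCR3 and are classic products of interferon signalling. XCL1 attracts cross-presenting dendritic cells through XCR1 and is made by activated CD8 T cells and NK cells. CCL3, CCL4 and CCL5 attract T cells and myeloid cells and are made by activated lymphocytes and myeloid cells, and CCL22 attracts regulatory and helper T cells through CCR4 and is known mainly from dendritic cells, macrophages and B cells. CD3 transmits the signal of the T cell receptor, IFNγ signals through its own receptor to interferon-inducible genes, and LPS is sensed by Toll-like receptor 4, which is far better known from myeloid and B cells than from T cells.

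With IFNγ, Cxcl9 and Cxcl10 rose and Ccl22 fell. With αCD3, Xcl1, Cxcl10, Cxcl9 and Ccl4 rose and Ccl5 fell. With LPS all of the genes except Cxcl9 were called higher, and Cxcl10 had its highest mean there, although its difference from IFNγ was not called. Both Cxcl9 and Xcl1 had LPS libraries within the Naïve range, and the Xcl1 call with LPS was lost in 14 of 20 alternatives. In the quasi-likelihood F-test of edgeR, with p-values adjusted over the 12122 genes tested and a gene referred to as called at an adjusted p under 0.05, 3 of the 7 chemokines were called for IFNγ against Naïve (2 higher, 1 lower), where 12.4% of all tested genes were called (8.17% higher, 4.27% lower). For αCD3 against Naïve 5 were called (4 higher, 1 lower), beside 38.6% of all genes (22.9% and 15.7%), and for LPS against Naïve 6 were called, all higher, beside 49.3% (26.9% higher, 22.3% lower). Between treatments, 4 were called for IFNγ against αCD3 (2 higher and 2 lower in IFNγ, against 37.2% of all genes, 15.8% higher and 21.4% lower), 5 for IFNγ against LPS (1 higher, 4 lower, against 40.4%, 18% higher and 22.4% lower) and 5 for αCD3 against LPS (1 higher, 4 lower, against 19.4%, 9.64% higher and 9.76% lower). All 7 differed somewhere among the 4 groups (adjusted p from 1.32e-06 to 0.00807), as did 59.9% of tested genes. Against Naïve, the 7 genes had a median log2 fold change of 0.35 with IFNγ, 1.12 with αCD3 and 1.72 with LPS, while the median over all tested genes lay between -0.02 and -0.01. The libraries of IFNγ, αCD3 and LPS did not overlap with those of Naïve in 31.5%, 52.4% and 58% of all tested genes. Between treatments this share was 48.4% for IFNγ against αCD3, 49.8% for IFNγ against LPS and 34.8% for αCD3 against LPS.

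Cxcl9 and Cxcl10 are neighbours. Cxcl9 (ENSMUSG00000029417.9) spans chr5:92321347-92328079 and Cxcl10 (ENSMUSG00000034855.13) chr5:92346638-92348889, both on the minus strand of GRCm38 (mm10), with a gap of 18.6 kb and no protein-coding gene wholly between them. Since both showed the largest changes with IFNγ among the 7, the 250 bases before their annotated starts are shown, from RefSeq GRCm38.p6, 5′ to 3′ on the strand of the gene. Capitals mark matches to the interferon-stimulated response element (ISRE, searched as GAAA, any 2 bases, GAAA), the interferon gamma-activated site (GAS, searched as TTCNNNGAA) or a NF-κB site of the usual decamer form, each on both strands.

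Cxcl9 (chr5:92328080-92328329, minus strand): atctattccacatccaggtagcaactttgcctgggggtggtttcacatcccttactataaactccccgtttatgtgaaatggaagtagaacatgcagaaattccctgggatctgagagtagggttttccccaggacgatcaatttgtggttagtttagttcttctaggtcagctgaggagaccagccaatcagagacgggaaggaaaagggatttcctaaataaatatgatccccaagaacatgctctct

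Cxcl10 (chr5:92348890-92349139, minus strand): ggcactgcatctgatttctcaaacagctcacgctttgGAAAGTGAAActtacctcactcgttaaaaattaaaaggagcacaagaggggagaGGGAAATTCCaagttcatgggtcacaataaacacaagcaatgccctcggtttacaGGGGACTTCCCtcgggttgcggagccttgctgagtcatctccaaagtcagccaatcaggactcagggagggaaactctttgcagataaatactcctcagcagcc

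The Cxcl10 window held 1 ISRE match, GAAAGTGAAA, 213 to 204 bases before the start, and NF-κB-type matches at 159 to 150 (GGGAAATTCC) and at 104 to 94 bases, where the overlapping words GGGGACTTCC and GGGACTTCCC fit. The Cxcl9 window held no match to the 3 motifs in the forms searched. This does not show that it lacks an interferon-responsive element, since other forms were not searched. Among 32851 promoter windows of the same length, 2.98% had an ISRE match, 7.02% a GAS match and 7.25% a NF-κB-type match. Windows were at hand for 5 of the 7 genes, and those of Xcl1, Ccl3 and Ccl22 had no match to any of the motifs, which says only that these letters do not occur there. Ccl4 and Ccl5 had no entry.

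Sequencing depth was 10.2 to 27.6 M counts per library, so that 1 count corresponds to 0.0353 to 0.102 CPM (counts relative to TMM-scaled library sizes). The labelled cell type was checked with marker genes. Cd8a had means of 205 to 432 CPM and Cd8b1 of 315 to 384 CPM over the groups, against 26.5 to 37.0 CPM for Cd4. B cell markers were nonetheless abundant, and no marker of that list was at 0 in any library. The 10 B cell genes summed to 3414 to 3720 CPM in Naïve, 2391 to 2776 in αCD3, 2734 to 2839 in IFNγ and 2052 to 3073 in LPS, whereas the 9 T cell genes in the table summed to 1718 to 1905, 2193 to 2427, 1772 to 1925 and 1431 to 1639 CPM. The 12 macrophage and monocyte genes summed to 446 to 816 CPM in Naïve, 306.5 to 452 in αCD3, 363 to 691 in IFNγ and 254 to 446 in LPS. The 8 dendritic cell genes summed to 74.1 to 125 CPM in Naïve and 48.4 to 94.8 in the treated groups, the 6 NK cell genes to 16.9 to 192.7 and the 6 neutrophil genes to 119 to 216 over all 12 libraries. In bulk RNA fewer cells of a type and less RNA per cell cannot be told apart, and the part of these other cells in the chemokine levels was not tested.

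**Figure D1:**
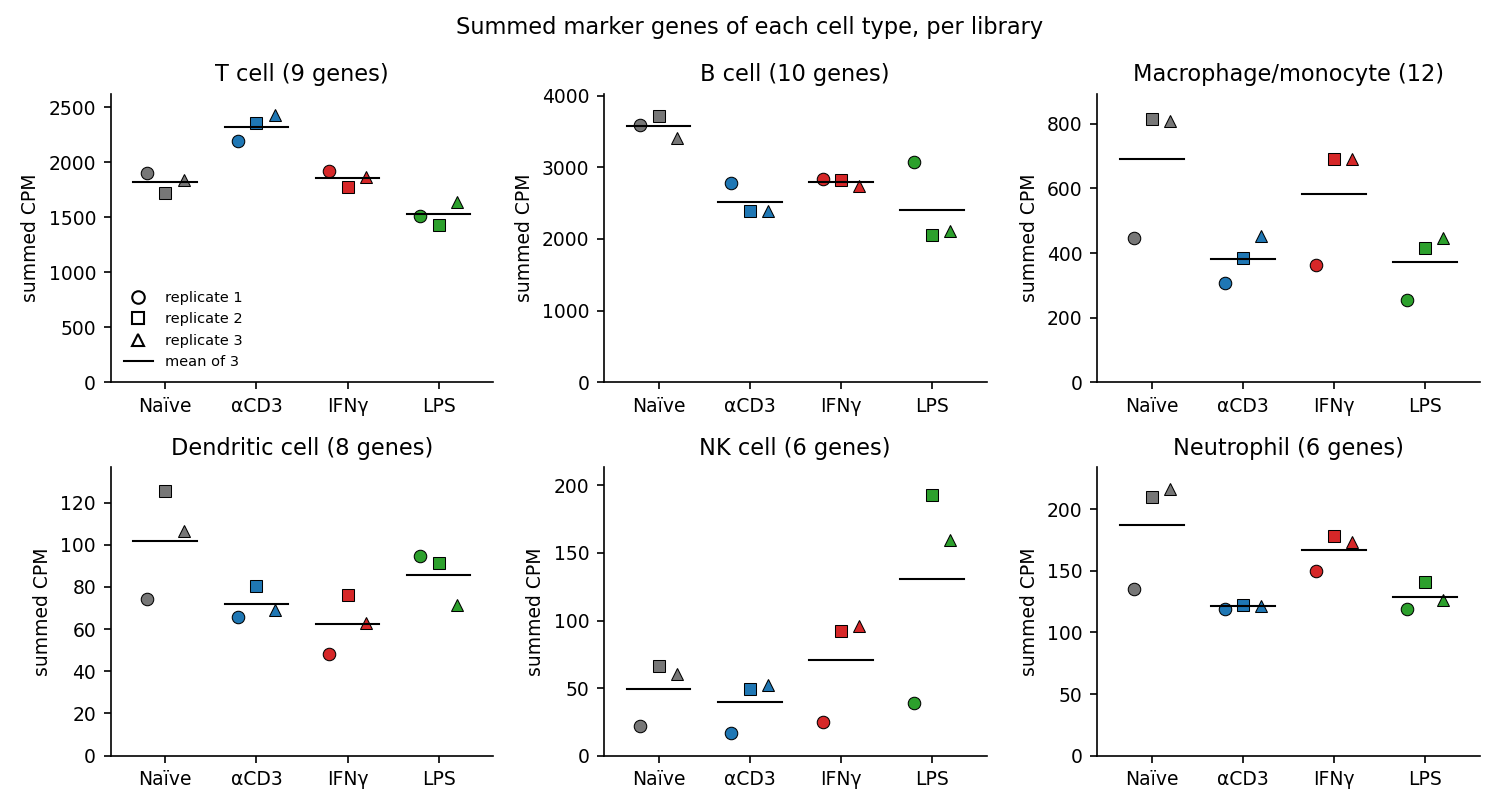
Summed CPM of the marker genes of 6 cell types (vertical axes, linear from 0) in each of the 12 libraries, by group on the horizontal axis, with the shape of a point giving the replicate and a line the mean of 3. B cell sums lay at 2052 to 3720 CPM and T cell sums at 1431 to 2427 CPM, and replicate 1 had the lowest NK cell sum in every group.

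Replicate 1 stood apart for these genes. It was the lowest of its group in all 4 groups for Cxcl9, Cxcl10, Xcl1, Ccl4 and Ccl5 and in 3 of 4 for Ccl3 and Ccl22, whereas 15.5% of all tested genes had replicate 1 lowest in every group. The NK cell sum was 21.9, 16.9, 25.3 and 38.7 CPM in replicate 1 of Naïve, αCD3, IFNγ and LPS, against 49.3 to 192.7 CPM in the other libraries, and the macrophage and monocyte sum was lowest in replicate 1 of every group as well. The B cell sum was instead highest in replicate 1 of αCD3, IFNγ and LPS, at 2776, 2839 and 3073 CPM. Replicates 2 and 3 had 2391 CPM each in αCD3, 2820 and 2734 in IFNγ and 2052 and 2108 in LPS. In Naïve replicate 1 it lay between the other libraries of the group. Libraries with the same replicate number deviated from their group means together, so for the 7 chemokines the fit with the number as a block is given where it changed a call, and results that rest on replicate 1 also with replicate 1 of every group left out, a choice made after seeing the data. Both fits were also run for the other chemokines, receptors and upstream genes against Naïve, but not for their differences between treatments or for the marker lists.

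**Figure D2:**
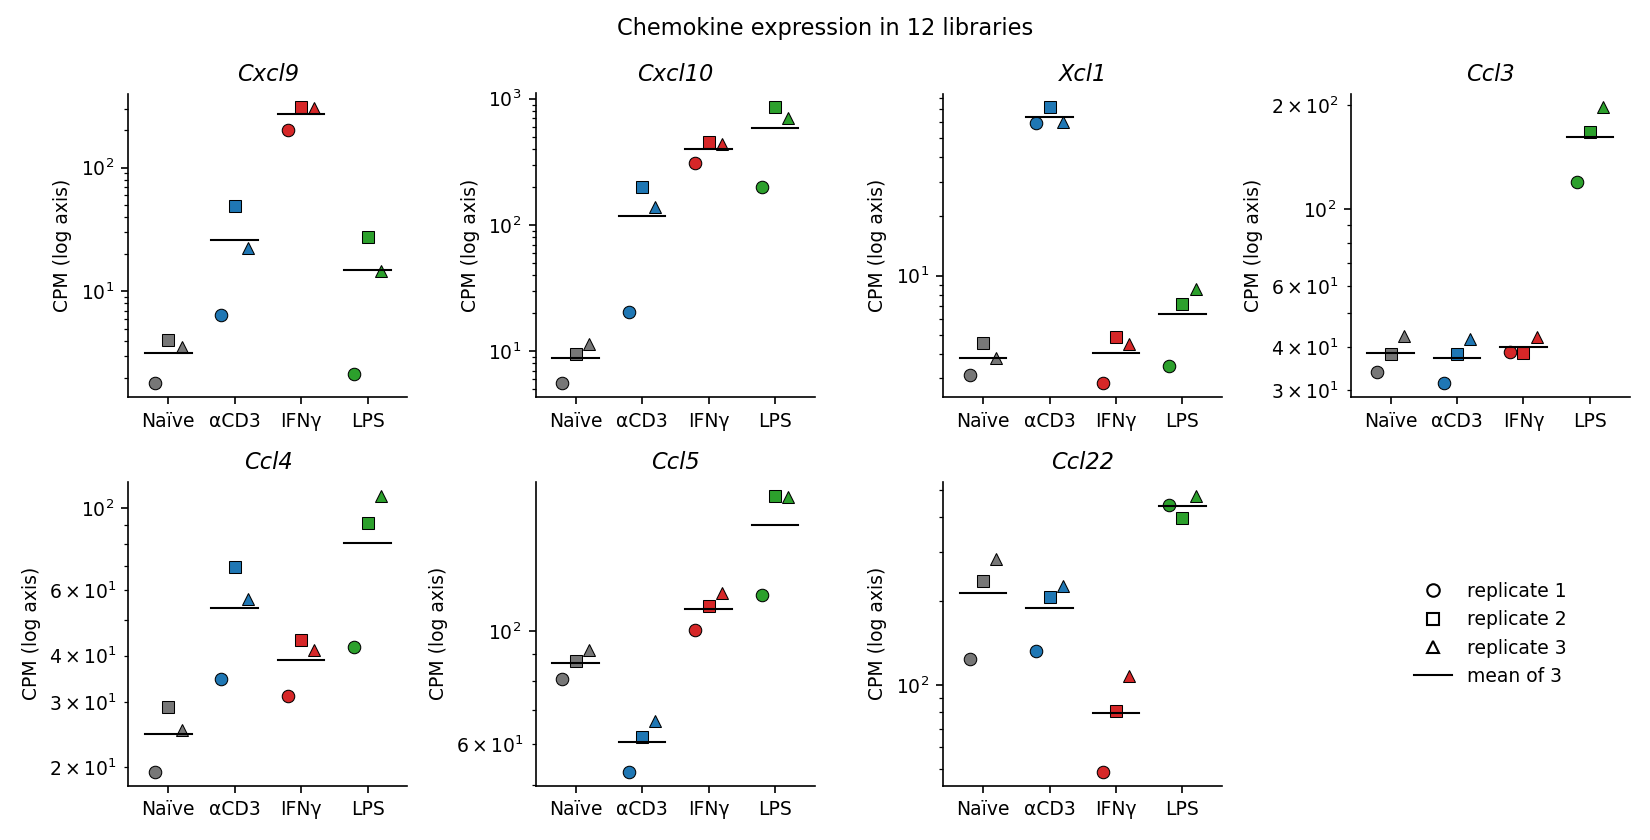
Expression of the 7 chemokine genes in the 12 libraries, in CPM on a log axis that differs between panels, by group, with the shape of a point giving the replicate and a line the mean of 3. Cxcl9 was highest in the IFNγ libraries, Xcl1 in the αCD3 libraries, and Ccl3 and Ccl22 in the LPS libraries, in each case without overlap with another group.

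Cxcl9 was expressed at 1.80, 4.07 and 3.57 CPM in Naïve replicates 1 to 3, at 6.45, 49.2 and 22.4 CPM with αCD3, at 199.7, 307.5 and 301 CPM with IFNγ and at 2.15, 27.7 and 14.7 CPM with LPS. All IFNγ libraries lay above the other 9 libraries, and LPS replicate 1 lay within the Naïve range. The increase with IFNγ was 6.46 on the log2 scale (SE 0.92, 95% CI 4.43 to 8.49, adjusted p = 0.00164), and that with αCD3 was 3.05 (SE 0.87, CI 1.12 to 4.98, adjusted p = 0.019). With LPS the difference was 2.30 (SE 0.89, CI 0.33 to 4.28) and was not called (adjusted p = 0.0531). It was called with the replicate block (2.12, adjusted p = 0.0289), without LPS replicate 1 (2.79, adjusted p = 0.0147), without αCD3 replicate 1 or 2 (adjusted p = 0.0249 and 0.0364), without replicate 1 of every group (2.48, adjusted p = 0.0245) and with DESeq2 (adjusted p = 0.024). Directly compared, Cxcl9 was higher in IFNγ than in αCD3 (3.41, SE 0.75, adjusted p = 0.00507) and than in LPS (4.16, SE 0.79, adjusted p = 0.00188). αCD3 and LPS were not separated (0.75, CI -0.92 to 2.42, adjusted p = 0.536), and without αCD3 replicate 2 this difference was -0.13. The αCD3 call was lost without Naïve replicate 1 or 3 or αCD3 replicate 2 (adjusted p = 0.0711, 0.0524 and 0.0874) and with limma-voom (2.44, adjusted p = 0.129).

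Cxcl10 had another order of groups. It was expressed at 5.56, 9.46 and 11.4 CPM in Naïve, at 20.4, 198.1 and 138 CPM with αCD3, at 309, 450.3 and 438 CPM with IFNγ and at 201, 855 and 706 CPM with LPS. Every treated library exceeded every Naïve library, and the LPS group had both the highest libraries and, in replicate 1, a library below all of IFNγ. Cxcl10 rose by 6.07 with LPS (SE 0.87, CI 4.15 to 8, adjusted p = 2.79e-04), by 5.51 with IFNγ (SE 0.85, CI 3.63 to 7.39, adjusted p = 0.00238) and by 3.76 with αCD3 (SE 0.79, CI 2.00 to 5.52, adjusted p = 0.00423), all on the log2 scale. The LPS and IFNγ groups were not separated (IFNγ minus LPS -0.56, CI -2.07 to 0.95, adjusted p = 0.543). Without replicate 1 of every group, IFNγ lay below LPS (-0.83, adjusted p = 0.00945). IFNγ exceeded αCD3 in every library, but the difference of 1.76 (SE 0.70, CI 0.20 to 3.32) was not called (adjusted p = 0.0748) unless the replicate block (2.19, adjusted p = 0.00868), limma-voom (2.30, adjusted p = 0.0385) or the data without replicate 1 (1.38, adjusted p = 0.00141) were used. αCD3 was lower than LPS (-2.31, SE 0.72, adjusted p = 0.0457). This last call was lost in 11 of 20 alternatives, among them leaving out any 1 library of Naïve or IFNγ (adjusted p from 0.0559 to 0.0646), αCD3 replicate 1 or 3 (0.0501 and 0.104) or LPS replicate 2 or 3 (0.142 and 0.112). Cxcl10 overlaps Art3 on the opposite strand, and 95.5% of its 31-base words are unique to it. Whether the counting used strand is not stated, so reads in the overlap cannot be assigned with certainty.

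In LPS and αCD3 the spread within the group was wider for these CXCR3 ligands than for the other 5 genes. Within LPS the highest library exceeded the lowest 12.9-fold for Cxcl9 and 4.25-fold for Cxcl10, and within αCD3 7.63-fold and 9.70-fold. In IFNγ and Naïve it was Ccl22 that spread most, 2.21-fold and 2.27-fold. Ifng, which encodes IFNγ itself, was at 8.69, 300.2 and 260.4 CPM in LPS replicates 1 to 3 and at 4.34, 40.6 and 31.2 CPM in those of αCD3, so the same libraries were low. In the IFNγ group, where the cytokine had been added, Ifng stayed at 1.94 to 5.07 CPM, and replicate 1, although lowest, reached 199.7 CPM for Cxcl9 and 309 CPM for Cxcl10. Irf1, an interferon-induced transcription factor, had 389, 1039 and 998 CPM in LPS. The part of Ifng in the chemokine levels was not tested.

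Xcl1 (ENSMUSG00000026573.7, chr1:164931644-164935527, minus strand) was set apart by αCD3. Naïve libraries had 3.12, 4.54 and 3.81 CPM, αCD3 libraries 59.7, 71.6 and 60.3 CPM, IFNγ libraries 2.83, 4.87 and 4.48 CPM and LPS libraries 3.48, 7.15 and 8.53 CPM. All αCD3 libraries lay above the other 9 and differed among themselves by at most 1.2-fold, replicate 1 included. The log2 difference of αCD3 was 4.08 to Naïve (SE 0.29, CI 3.44 to 4.71, adjusted p = 7.35e-06) and 3.30 to LPS (SE 0.28, adjusted p = 2.77e-05), and that of IFNγ to αCD3 was -3.98 (SE 0.29, adjusted p = 6.95e-06). Neither IFNγ against Naïve (0.09, CI -0.59 to 0.77, adjusted p = 0.888) nor IFNγ against LPS (-0.68, CI -1.34 to -0.01, adjusted p = 0.0978) was called. The latter was called with the replicate block (-0.66, adjusted p = 0.0297), without LPS replicate 1 (-0.96, adjusted p = 0.00695) and without replicate 1 of every group (-0.76, adjusted p = 0.0054).

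The rise of Xcl1 with LPS was small and hardly past the threshold (0.77, SE 0.29, adjusted p = 0.0485), and LPS replicate 1 lay among the Naïve libraries. The call was lost in 14 of 20 alternatives, over which the adjusted p ran from 0.00136 to 0.213. Among leave-outs it was kept only without IFNγ replicate 1 (0.76, adjusted p = 0.0427), without LPS replicate 1 (1.05, adjusted p = 0.00294) or without replicate 1 of every group (0.92), while without LPS replicate 3 the difference was 0.51 (adjusted p = 0.213). NK cells also express Xcl1. The NK cell sum was 38.7, 192.7 and 160 CPM in LPS but 16.9, 49.3 and 52.6 CPM in αCD3, where Xcl1 was highest, and its part in the LPS difference was not tested. Most of the LPS sum was Gzma (31.8, 176 and 143 CPM), and of the 6 NK cell genes none was called higher and 1 lower in LPS against Naïve (edgeR, median log2 fold change -0.42, with Gzma at 1.94, adjusted p = 0.0631). Gm20743 overlaps Xcl1 on the opposite strand, and 85.8% of the 31-base words of Xcl1 are unique to it.

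Ccl3, Ccl4 and Ccl5 lie together on chromosome 11. Ccl3 (ENSMUSG00000000982.5) spans chr11:83647844-83649355 on the minus strand, Ccl4 (ENSMUSG00000018930.3) chr11:83662584-83664683 on the plus strand, 13.2 kb from it, and Ccl5 (ENSMUSG00000035042.2) chr11:83525778-83530518 on the minus strand. At least 99.5% of the 31-base words of each are unique to the gene, and no annotated gene overlaps them.

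Ccl3, also known as MIP-1α, responded to LPS. It was expressed at 33.8, 38.1 and 43.1 CPM in Naïve, 31.4, 38.2 and 42.1 CPM with αCD3, 38.6, 38.4 and 42.8 CPM with IFNγ and 120.4, 168 and 198 CPM with LPS. Naïve, αCD3 and IFNγ overlapped, and the LPS libraries lay above all of them. The log2 increase over Naïve was 2.08 (SE 0.17, CI 1.70 to 2.47, adjusted p = 8.35e-06), and the differences of IFNγ and αCD3 to LPS were -2.02 and -2.13 (adjusted p = 8.93e-06 and 2.59e-05). Against Naïve, the intervals were -0.32 to 0.44 for IFNγ and -0.43 to 0.33 for αCD3, and neither was called (adjusted p = 0.876 and 0.849). The 3 calls held in all 20 alternatives.

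Ccl4, or MIP-1β, is usually induced together with Ccl3, but its groups ordered differently. Its values were 19.5, 29.2 and 25.2 CPM in Naïve, 34.7, 69.2 and 57.0 CPM with αCD3, 31.2, 44.1 and 41.5 CPM with IFNγ and 42.3, 91.0 and 108 CPM with LPS. All treated libraries lay above all Naïve libraries, and the 3 treatments overlapped one another. Ccl4 rose by 1.72 with LPS (SE 0.35, adjusted p = 0.00235) and by 1.12 with αCD3 (SE 0.34, adjusted p = 0.0261). For IFNγ the difference was 0.67 (SE 0.35, CI -0.10 to 1.43, adjusted p = 0.269), which was called with the replicate block (0.66, adjusted p = 0.0267) and without replicate 1 of every group (0.64, adjusted p = 0.00866).

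Between treatments IFNγ lay below LPS in Ccl4 (-1.05, SE 0.34, adjusted p = 0.031), while IFNγ against αCD3 (-0.45, CI -1.21 to 0.30, adjusted p = 0.328) and αCD3 against LPS (-0.60, CI -1.34 to 0.15, adjusted p = 0.248) were not called. The last was called with the replicate block (-0.57, adjusted p = 0.028), without LPS replicate 1 (-0.90, adjusted p = 0.0417) and without replicate 1 of every group (-0.65, adjusted p = 0.00382), and that last setting also called IFNγ against αCD3 (-0.58, adjusted p = 0.00499). The αCD3 call against Naïve was lost without Naïve replicate 1 or 3 or αCD3 replicate 2 or 3 (adjusted p = 0.0906, 0.0649, 0.103 and 0.0701). The call of IFNγ against LPS was lost without IFNγ replicate 1, 2 or 3 (0.108, 0.0533 and 0.0633), without LPS replicate 2 or 3 (0.0911 and 0.123), with limma-voom (0.0584) and with no count filter (0.0561).

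Ccl5, or RANTES, was the only one of the 7 that fell with αCD3. Naïve libraries had 80.6, 87.2 and 91.6 CPM, αCD3 libraries 53.0, 62.0 and 66.6 CPM, IFNγ libraries 100.3, 112 and 119 CPM and LPS libraries 118, 184 and 183 CPM. Naïve lay between αCD3 below and both other treatments above, with no overlap. The log2 change was -0.52 for αCD3 (SE 0.16, adjusted p = 0.0242) and 0.90 for LPS (SE 0.16, adjusted p = 8.53e-04). That for IFNγ was 0.35 (SE 0.16, CI 0.01 to 0.70, adjusted p = 0.187) and was called with the replicate block (0.35, adjusted p = 0.0188), without LPS replicate 1 (0.35, adjusted p = 0.0344) and without replicate 1 of every group (0.35, adjusted p = 0.00361). IFNγ exceeded αCD3 (0.87, SE 0.16, adjusted p = 0.00146) and lay below LPS (-0.55, SE 0.16, adjusted p = 0.016), and αCD3 did so more (-1.42, SE 0.16, adjusted p = 2.06e-04). The fall with αCD3 was not called without Naïve replicate 2 or 3 or αCD3 replicate 1 or 2 (adjusted p = 0.0597, 0.0745, 0.0759 and 0.0611), and IFNγ against LPS not without IFNγ replicate 1 or LPS replicate 2 or 3 (0.0655, 0.0682 and 0.0667).

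Ccl22 (ENSMUSG00000031779.3, chr8:94745590-94751699, plus strand) was the only one that fell with IFNγ. Its values were 125, 237 and 283 CPM in Naïve, 133, 207 and 227 CPM with αCD3, 49.0, 81.1 and 108 CPM with IFNγ and 442.5, 398 and 478 CPM with LPS. The IFNγ libraries lay below and the LPS libraries above all others, and Naïve and αCD3 overlapped. The log2 change was -1.44 with IFNγ (SE 0.34, CI -2.19 to -0.68, adjusted p = 0.0209), 1.03 with LPS (SE 0.33, CI 0.29 to 1.77, adjusted p = 0.0257) and -0.19 with αCD3 (CI -0.92 to 0.55, adjusted p = 0.692). IFNγ lay below LPS (-2.47, SE 0.35, adjusted p = 2.84e-04) and below αCD3 (-1.25, SE 0.34, adjusted p = 0.0149), and αCD3 below LPS (-1.22, SE 0.34, adjusted p = 0.0291).

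The Ccl22 calls against Naïve depended on single libraries. That for IFNγ was lost without Naïve replicate 2 or 3 or IFNγ replicate 1 or 2 (adjusted p = 0.0679, 0.0821, 0.051 and 0.0733). That for LPS was lost without Naïve replicate 1 or LPS replicate 1 or 3 (0.0763, 0.0501 and 0.0685), without TMM factors (0.05) and without the count filter (0.0505). αCD3 against LPS was lost without any 1 of the 6 libraries compared (adjusted p from 0.0503 to 0.092) or with no count filter (0.0563), and IFNγ against αCD3 without αCD3 replicate 3 (0.0546). With the replicate block all 4 remained called. Marker sums of cell types known to express Ccl22 are given beside it, and their part was not tested. The dendritic cell sum was 74.1 to 125 CPM in Naïve, 65.9 to 80.5 in αCD3, 48.4 to 76.3 in IFNγ and 71.4 to 94.8 in LPS, with 1 of 7 tested genes of that list higher and 1 lower in LPS against Naïve and 2 lower in IFNγ, where 4.27% of all genes were lower. In LPS, where Ccl22 was highest, 3 of 10 B cell markers and 8 of 12 macrophage and monocyte markers were lower than in Naïve, beside 22.3% of all genes, and 1 of each list was higher, beside 26.9%. In IFNγ, 2 of 10 B cell markers were lower and none higher (median log2 fold change -0.29). The B cell sum was 2734 to 2839 CPM there, against 3414 to 3720 CPM in Naïve. Of the 12 macrophage and monocyte markers, 1 was lower with IFNγ and none higher (median -0.08).

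**Figure D3:**
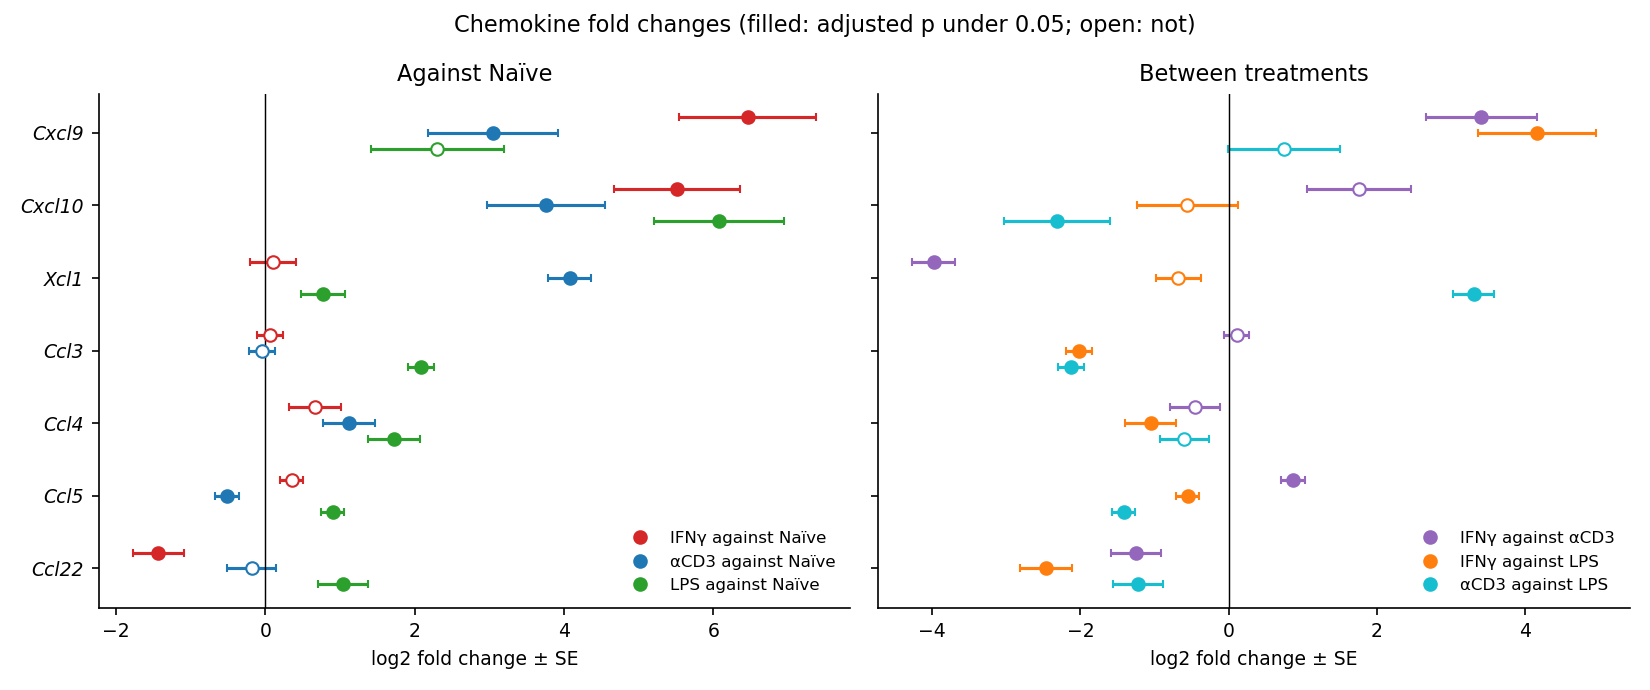
Log2 fold changes of the 7 chemokine genes against Naïve (left) and between treatments (right) from the edgeR fit, with bars of 1 SE. Filled points have an adjusted p under 0.05, which holds for 28 of the 42 values, and the changes of Cxcl9 and Cxcl10 have SEs of 0.68 to 0.92 against 0.16 to 0.18 for Ccl3 and Ccl5.

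The groups were ordered by their means, and neighbours in each order were compared first without the replicate block. For Cxcl9 the order was IFNγ, αCD3, LPS, Naïve, and the difference between IFNγ and αCD3 was called. For Cxcl10 it was LPS, IFNγ, αCD3, Naïve, with a called difference between αCD3 and Naïve. For Xcl1 (αCD3, LPS, IFNγ, Naïve) and Ccl3 (LPS, IFNγ, Naïve, αCD3) the first group was separated from its neighbour. For Ccl4 (LPS, αCD3, IFNγ, Naïve) no difference between neighbours was called. For Ccl5 (LPS, IFNγ, Naïve, αCD3) LPS was separated from IFNγ and Naïve from αCD3, and for Ccl22 (LPS, Naïve, αCD3, IFNγ) LPS from Naïve and αCD3 from IFNγ. With the replicate block, 6 more differences between neighbours were called, namely LPS and Naïve for Cxcl9 (adjusted p = 0.0289), IFNγ and αCD3 for Cxcl10 (adjusted p = 0.00868), LPS and IFNγ for Xcl1 (adjusted p = 0.0297), LPS and αCD3 (adjusted p = 0.028) and IFNγ and Naïve (adjusted p = 0.0267) for Ccl4, and IFNγ and Naïve for Ccl5 (adjusted p = 0.0188). No 2 genes but Ccl3 and Ccl5 shared an order of means.

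To compare the genes with each other, CPM was divided by the length in kb of the longest protein-coding transcript. On this scale Ccl5 was the most abundant in Naïve (162.5 ± 10.4 CPM per kb, SD, n = 3), ahead of Ccl22 (96.9 ± 36.7) and Ccl3 (50.1 ± 6.0), and Cxcl9 was the least (1.09 ± 0.41). With αCD3, Xcl1 had the highest mean (122 ± 12.8), close to Ccl5 (114 ± 13), but it came first only in replicate 1, while Cxcl10 was ahead of it in replicate 2 and Ccl5 in replicate 3. With IFNγ, Cxcl10 came first (295 ± 58), then Ccl5 (207 ± 17.6) and Cxcl9 (93.3 ± 20.9), and Ccl22 was down to 35.8 ± 13.4. With LPS, Cxcl10 had the highest mean again (434 ± 253), though in replicate 1 it lay below Ccl5, Ccl22 and Ccl3. By mean it came before Ccl5 (303 ± 71.3), Ccl3 (211.5 ± 50.8) and Ccl22 (198 ± 18.1), and Cxcl9 was last (5.14 ± 4.41). Lengths of all exons together in place of the longest transcript left Xcl1 with the highest mean in αCD3 and Cxcl10 in IFNγ and LPS, but put Ccl22 (92.4 CPM per kb) before Ccl5 (90.1) in Naïve and moved Ccl5 to rank 4 in αCD3 and LPS, so these ranks depend on the transcripts in use.

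The summed level of the 7 genes was 292 to 411 CPM per kb in Naïve, 384.5 to 665 in αCD3, 611 to 827 in IFNγ and 798 to 1537 in LPS. Cxcl10 made up 1.41 to 2.05% of this sum in Naïve, 3.93 to 22% in αCD3, 37.3 to 41% in IFNγ and 18.6 to 41.1% in LPS. Cxcl9 reached 11.3 to 13.1% in IFNγ and at most 2.56% in any other library. Xcl1 held 19.4 to 29.7% in αCD3 and at most 2.27% elsewhere. Ccl5 went from 41.9 to 51.9% in Naïve down to 17.5 to 25.9% in αCD3, 25.9 to 30.9% in IFNγ and 22.5 to 27.7% in LPS. Ccl22 went from 19.3 to 31% in Naïve to 14.1 to 17.3% in αCD3, 3.62 to 5.90% in IFNγ and 11.7 to 25% in LPS. A share also falls when other genes rise, and both Ccl5 and Ccl22 were called higher with LPS.

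**Figure D4:**
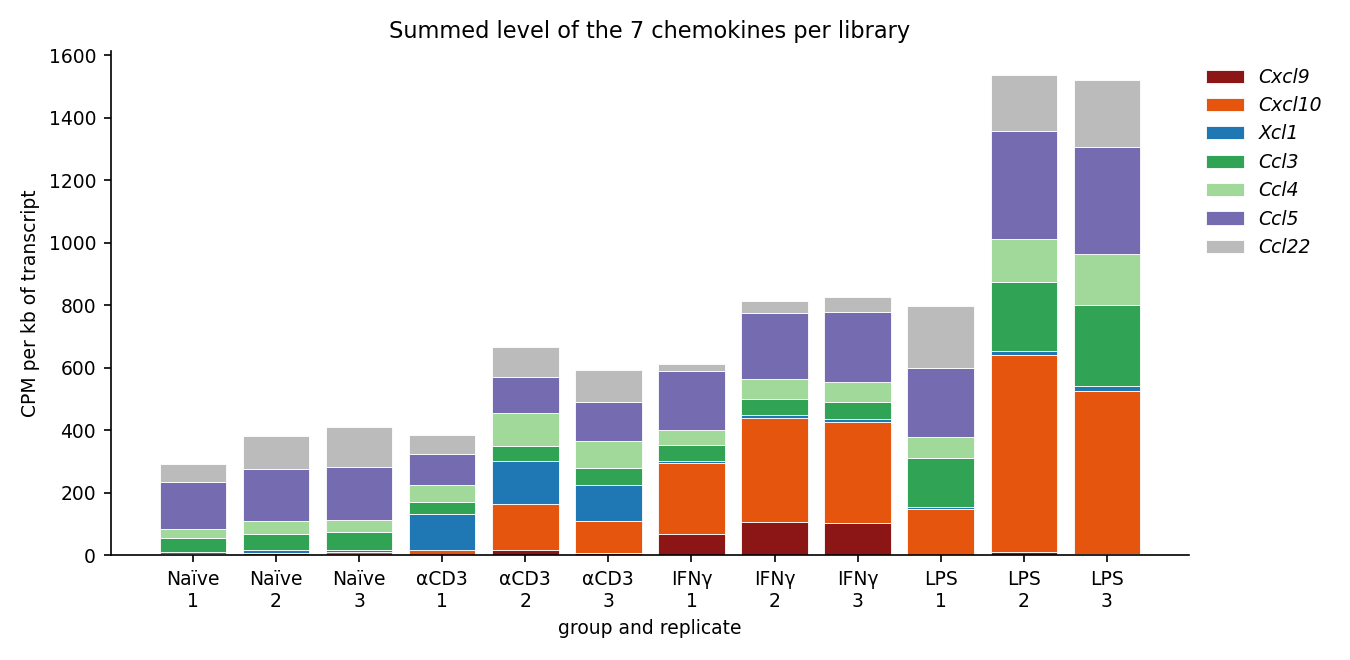
Summed expression of the 7 chemokine genes in each library, in CPM per kb of the longest protein-coding transcript (vertical axis, from 0), with coloured segments for the genes and 1 bar per library. Cxcl10 took 37.3 to 41% of the sum in IFNγ and Xcl1 19.4 to 29.7% in αCD3, and Ccl5 was the largest segment in Naïve.

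Of 31 further chemokines in the table, 18 were tested, and against Naïve 1 was higher and 4 were lower with IFNγ, 1 higher and 7 lower with αCD3, and 3 higher and 5 lower with LPS, beside 12.4%, 38.6% and 49.3% of all genes called in either direction. Their median log2 fold changes were -0.80, -1.08 and -0.67, where those over all genes were -0.02, -0.02 and -0.01. The remaining 13 did not exceed a mean of 3.30 CPM in any group. Between treatments none was higher and 1 was lower in IFNγ than in αCD3, 3 were lower in IFNγ than in LPS and 3 lower in αCD3 than in LPS, where 37.2%, 40.4% and 19.4% of all genes were called. With the replicate block no call against Naïve was lost, and 8, 11 and 9 of the 18 were lower with IFNγ, αCD3 and LPS, while the share of all genes called rose to 24.9%, 52.4% and 59.5%. Among those gained, Ccl2 and Ccl17 were called lower with both αCD3 and LPS.

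Cxcl11, followed as RNA only, rose with all stimuli, by 5.49 with IFNγ (adjusted p = 0.00586), 3.46 with αCD3 (adjusted p = 0.0235) and 4.38 with LPS (adjusted p = 0.00485). Its counts were low, at 2 to 5 in Naïve libraries, and it had 6.48, 13.4 and 9.06 CPM in IFNγ, 0.458, 4.80 and 2.18 CPM in αCD3 and 1.02, 6.14 and 6.11 CPM in LPS, replicate 1 again lowest. Without replicate 1 of every group its changes were 5.28, 3.62 and 4.43 (adjusted p = 1.18e-04, 6.16e-04 and 1.17e-04). The neutrophil attractants Cxcl1 and Cxcl2 rose with LPS alone among the 3 comparisons with Naïve. Cxcl2 went from 24.1 ± 4.82 to 139 ± 31.1 CPM (SD, n = 3, log2 fold change 2.53, adjusted p = 3.43e-06) and was lower with αCD3 (-0.69, adjusted p = 0.0131) and, with the replicate block, with IFNγ (-0.57, adjusted p = 0.0386). Cxcl1 had 3.48, 6.22 and 10.8 CPM with LPS (4.21, adjusted p = 2.54e-04). Its αCD3 and IFNγ libraries held 2 counts or fewer each, so that LPS was at least 34.4-fold and 25.6-fold higher, taken against a floor of 3 counts per library.

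Cxcl3 fell with IFNγ (-4.01, adjusted p = 0.0193) and αCD3 (-3.00, adjusted p = 0.0174), from 4.34, 38.0 and 34.9 CPM in Naïve to 1.05 to 2.24 and 1.87 to 5.88 CPM, but had 8.69, 31.1 and 45.4 CPM with LPS (0.16, adjusted p = 0.878). Ccl24, an eosinophil attractant made by macrophages, was lower with all stimuli (-3.02, -2.28 and -3.77 for IFNγ, αCD3 and LPS, adjusted p = 0.0354, 0.0371 and 0.00461), and Naïve replicate 1 (1.90 CPM) was already as low as treated libraries, against 25.3 and 33.1 CPM in replicates 2 and 3. Without replicate 1 of every group, Ccl24 changed by -3.36, -2.47 and -4.25 (adjusted p = 9.59e-06, 1.65e-05 and 1.36e-06) and Cxcl3 by -4.30 with IFNγ and -3.15 with αCD3 (adjusted p = 0.00102 and 8.27e-04). Ccl9, which lies in the same cluster as Ccl3 and Ccl5, was lower with all stimuli too (-1.82, -1.77 and -1.35, adjusted p = 0.0168, 0.00655 and 0.0177). Its neighbour Ccl6 was lower with αCD3 (-1.52, adjusted p = 0.0218) and LPS (-1.35, adjusted p = 0.0287), with -1.47 for IFNγ (adjusted p = 0.0594), which was called with the replicate block (-1.38, adjusted p = 9.26e-04). Ppbp, a platelet chemokine, was lower with αCD3 (-1.53, adjusted p = 0.00887) and LPS (-1.25, adjusted p = 0.0186), with -1.01 for IFNγ (adjusted p = 0.114; with the block -1.02, adjusted p = 0.0193). The macrophage and monocyte sum was lower in all αCD3 and LPS libraries than in Naïve replicates 2 and 3, with 5 and 8 of its 12 genes called lower (median log2 fold changes -0.82 and -1.14), beside 15.7% and 22.3% of all genes. In the IFNγ libraries, where Cxcl3, Ccl24 and Ccl9 were lower too, that sum was 363.3, 691.3 and 691.0 CPM against 445.6, 815.6 and 809.2 CPM in Naïve, and 1 of the 12 genes was called lower (median -0.08), beside 4.27% of all genes. Its part in the decreases of these chemokines was not tested.

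**Figure D5:**
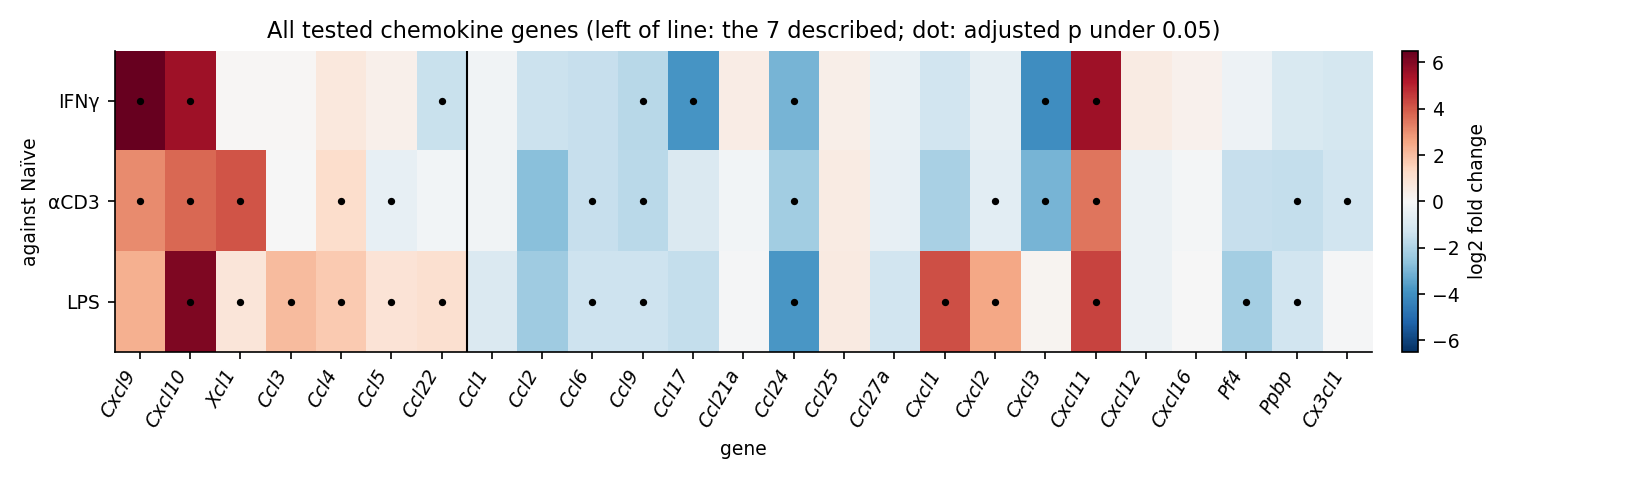
Log2 fold change against Naïve (colour) of the 7 chemokine genes described, left of the line, and of the 18 other tested chemokine genes, right of it, for each stimulus in rows. A dot marks an adjusted p under 0.05, which 14 of 21 values have on the left, and on the right Cxcl11, Cxcl1 and Cxcl2 account for all called increases.

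Of 6 receptor genes of the 7 chemokines, 1 was higher and 1 lower with αCD3 and 1 higher and 1 lower with LPS, beside 38.6% and 49.3% of all genes called. With IFNγ no receptor passed the adjusted threshold in edgeR without the replicate block (1, Ccr4, had an unadjusted p under 0.05, at 0.0279), and Cxcr3 had 33.2 ± 4.37 CPM against 35 ± 1.56 in Naïve. Cxcr3, the receptor of CXCL9 and CXCL10, fell to 27.6 ± 3.51 CPM with αCD3 (-0.34, adjusted p = 0.035) and to 22.3 ± 1.35 CPM with LPS (-0.65, adjusted p = 9.59e-04). Ccr4, the receptor of CCL22, rose from 5.59 ± 0.24 to 15.0 ± 3.51 CPM with αCD3 (1.42, adjusted p = 3.56e-04). Xcr1, the receptor of XCL1 and a marker of dendritic cells, had 1.56 to 3.14 CPM in all libraries and was not called against Naïve. Ccr1 and Ccr3 were not called without the replicate block, and with it Ccr1 was lower with αCD3 (-1.07, adjusted p = 4.50e-04) and LPS (-1.48, adjusted p = 6.00e-05) and Ccr3 with IFNγ (-0.85, adjusted p = 0.0182) and αCD3 (-0.61, adjusted p = 0.0343). For IFNγ the block thus called 1 of the 6 receptors lower, and it also called 1 higher. Among atypical receptors, which bind ligands without classical signalling, 3 of 5 were tested. Ccrl2 rose with all stimuli, by 3.07 with IFNγ, 2.21 with αCD3 and 3.59 with LPS (adjusted p = 0.00394, 0.00782 and 3.13e-04). Ackr3 rose (1.88, adjusted p = 0.00495) and Ackr2, a scavenger of inflammatory CC chemokines, fell (-2.81, adjusted p = 0.0148) with LPS.

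Of 10 genes that act upstream of chemokine transcription, 2 were higher and 1 lower with IFNγ, 3 higher with αCD3 and 8 higher with LPS, beside 12.4%, 38.6% and 49.3% of all genes called. Irf1 rose with IFNγ from 272 ± 35.9 to 1178 ± 100.3 CPM (2.11, adjusted p = 0.00226) and with LPS to 808.5 ± 363.9 CPM (1.57, adjusted p = 0.00227). Tnf, an inducer of NF-κB, rose with IFNγ, αCD3 and LPS, by 1.31, 1.17 and 2.02 (adjusted p = 3.21e-04, 6.63e-05 and 2.13e-06). The NF-κB genes Nfkb1 (1.15, adjusted p = 1.11e-06), Nfkb2 (1.00, adjusted p = 3.96e-06), Rel (0.29, adjusted p = 0.0192), Relb (0.27, adjusted p = 0.0148) and the inhibitor Nfkbia (1.40, adjusted p = 1.11e-06) were higher with LPS, and Nfkb1 (0.42, adjusted p = 5.08e-04) and Nfkb2 (0.27, adjusted p = 0.0146) with αCD3. With IFNγ these 2 genes and Nfkbia were not called (0.05, 0.07 and 0.14), and Rel was lower (-0.32, adjusted p = 0.0351). Ifng rose with LPS (6.19, SE 1.25, adjusted p = 0.00234), and its difference with αCD3 of 3.25 was not called (adjusted p = 0.055), but was with the replicate block (3.11, adjusted p = 0.0108) and without replicate 1 of every group (3.54, adjusted p = 1.87e-05). The block also added Rela with IFNγ (0.17, adjusted p = 0.023) and LPS (0.21, adjusted p = 0.00334).

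Genes with the most similar profile were sought by the mean absolute difference in log2 CPM to each chemokine over the 12 libraries, after both had been centred on their Naïve mean. Nearest to Cxcl9 were Clic5 (0.53), Serpina3f (0.88) and Cxcl11 (0.94), and nearest to Cxcl10 were Nos2 (0.39), Ifit3b (0.67) and Ifit3 (0.71). Nos2 had a mean of 0 CPM in Naïve and of 1.99, 10.2 and 11.3 CPM in αCD3, IFNγ and LPS. Its Naïve centre was thus set by the prior count of 2, and its distance to Cxcl10 depends on that value. Clic5 had 49.3 CPM in IFNγ and 4.90 CPM or less in the other group means. Xcl1 had Serpine2 (0.38), Spry1 (0.40) and Tnfrsf9 (0.43), the last encoding the costimulatory receptor 4-1BB, at 375 CPM with αCD3 and 48.7 to 94.0 CPM in the other groups.

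For Ccl3 the nearest were Mybl2 (0.15), Il10 (0.17) and Batf (0.19), for Ccl4 Magohb (0.16), Gpr65 (0.16) and Cacybp (0.19), and for Ccl5 Dtx4 (0.13), Dgat1 (0.16) and Bcl3 (0.16). For Ccl22 they were Prag1 (0.28), Plxnd1 (0.30) and Marcks (0.37), which were all lowest in IFNγ and highest in LPS. Among the 7 themselves, Ccl3 and Ccl5 were closest (0.50), followed by Ccl3 and Ccl4 (0.59), and the adjacent Cxcl9 and Cxcl10, at 1.47, were each nearer to the other than to any of the remaining 5. The measure uses libraries that share a Naïve centre and is given as a description.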

How the data were processed

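mRNA of 12 libraries, 3 per group, was sequenced. The authors pseudo-aligned reads with Kallisto (version and annotation not given in the sources used here; genome mm10). They deposited 1 column of estimated counts for each library, by gene symbol and unscaled. Their methods name TMM normalisation and DESeq2 1.24.0. Here counts were rounded, which touched Cxcl9, Cxcl10 and Ccl5 among the chemokines. edgeR 4.0.16 in R 4.3.3 (quasi-likelihood F-test, robust, TMM, filterByExpr) was fitted once to all 12 libraries with group as the only term, with 6 contrasts and Benjamini-Hochberg adjustment over 12122 genes. DESeq2 1.42.0 and limma 3.58.1 served as alternatives. On simulated counts for IFNγ against Naïve over 12122 genes the edgeR test recovered 72% of genes changed by 1 and 93% of those changed by 2 on the log2 scale. It made 10 false calls. The simulated libraries lacked the shared deviation of same-numbered libraries, so these rates need not hold for the data.

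CPM were computed on TMM-scaled library sizes, and log2 CPM for likeness with a prior count of 2. Standard errors and 95% intervals come from the fit. Coordinates, lengths and unique 31-base words are from GENCODE M21 (GRCm38), promoters from RefSeq. All same-numbered libraries correlated in their deviations from group means (r from 0.117 to 0.401 in 18 of 18 pairs, different numbers -0.354 to 0.102). The number was therefore used as a block in an alternative fit, while the main fit did not pair the libraries. Pairing was read from the data, since the labels do not say what a number marks. The 7 genes and all lists were chosen with earlier results of these data known. All 7 were named. Other chemokines were named when called against Naïve and averaging 5 CPM or more in the highest group, and likeness was limited to genes that met that same minimum. Ccl2 and Ccl17 were named for calls gained with the replicate block, without that minimum being applied. Some genes of the lists are not reported here.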

Additional observations from a re-analysis of the deposited data

How the results depend on the processing

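Each of the 42 differences (7 chemokines in 6 comparisons) was recomputed under 20 alternatives. Of the 840 values 741 kept direction and side of the threshold, 64 lost and 22 gained a call, and 13 changed sign. None of the 28 called differences changed sign, 11 of them lost the call in at least 1 alternative, and 17 of the 42 never changed. DESeq2 called 1 further difference, limma-voom lost 3 and gained 1, and unrounded counts changed none.

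The number of chemokines called moved from 3 to 5 for IFNγ against Naïve with the replicate block and also without replicate 1 of every group (added after seeing the data), where the share of all genes called rose from 12.4% to 24.9% and 23.3%, and from 5 to 3 for αCD3 against LPS with no count filter (11.8% of all genes instead of 19.4%). With replicate 1 left out of every group, 7 instead of 5 chemokines were called between IFNγ and LPS (47.8% of all genes instead of 40.4%) and 6 instead of 4 between IFNγ and αCD3 (45.4% instead of 37.2%). LPS against Naïve had 4 instead of 6 where TMM factors were dropped, as it had without the count filter (53.8% and 33.5% of all genes instead of 49.3%). Leaving out single libraries gave 2 to 4 (IFNγ against Naïve), 2 to 5 (αCD3 against Naïve), 4 to 6 (LPS against Naïve), 3 to 4 (IFNγ against αCD3), 3 to 6 (IFNγ against LPS) and 3 to 5 (αCD3 against LPS). The shares of all genes called then ran, in the same order, from 6.38% to 13.4%, 25.4% to 40.2%, 38.6% to 49.8%, 28.1% to 38.0%, 31.9% to 41.1% and 11.6% to 21.0%. The low of 2 for αCD3 against Naïve came without Naïve replicate 3 or αCD3 replicate 2, and 3 without Naïve replicate 1. The 3 for IFNγ against LPS came without IFNγ replicate 1 or LPS replicate 2 or 3, and the 3 for αCD3 against LPS without αCD3 replicate 1 or 3 or LPS replicate 2 or 3. The replicate block lost no call of the 7 chemokines and gained 6, each listed with its gene, and the cause of these changes was not tested.

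The sign changes all concern differences that were not called. For IFNγ against Naïve, library size alone gave -0.0475 for Xcl1 and -0.0805 for Ccl3, and leaving out single libraries gave -0.062 to 0.30 for Xcl1 (below 0 without Naïve replicate 1 or IFNγ replicate 2) and -0.0254 to 0.15 for Ccl3 (below 0 without Naïve replicate 1). For αCD3 against Naïve such leave-outs gave -0.14 to 0.0678 for Ccl3 and -0.46 to 0.0639 for Ccl22, both above 0 without Naïve replicate 3 or αCD3 replicate 1. They gave -0.0089 to 0.20 for Ccl3 in IFNγ against αCD3 (below 0 without αCD3 replicate 1) and -0.13 to 1.54 for Cxcl9 in αCD3 against LPS (below 0 without αCD3 replicate 2). Without replicate 1 of every group Ccl3 was at -0.023 in IFNγ against Naïve and at -0.0111 in IFNγ against αCD3. Library size alone moved the median over all genes to -0.16, -0.13 and -0.22 for IFNγ, αCD3 and LPS against Naïve, and the higher share of called genes from 65.6% to 31.4%, 59.3% to 44% and 54.7% to 32.8%.

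Depth limits the Naïve level of Cxcl9, which rests on 37 to 59 counts per library, and of Cxcl11, on 2 to 5.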
